A study of Mus musculus with 20 samples.

Results

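The 8 genes described here, Fkbp5, Tsc22d3, Zbtb16, Sgk1, Klf9, Klf15, Mt1, and Mt2, are known to be induced by glucocorticoid hormone. They were chosen by name from a list of such genes, and all 8 were found among the 15956 genes of the deposited raw counts. RNA was taken from left ventricular heart tissue of 20 male mice, 5 in each of 4 diet groups. Normal protein (NP) mice ate a control diet, and low protein (LP) mice ate the same kind of diet with less casein, the protein source. High-fat (HF) mice ate a high-fat diet with the casein content of NP, and HF + LP mice ate a high-fat diet with the casein content of LP. All groups stayed on their diets for 4 months, were housed under the same light and dark cycle, and were killed in the middle of the light phase in the fed state. No group received a glucocorticoid, had its adrenal glands removed, or carried a genetic change, as far as the sources used here state. By the labels, all mice were 18 months old, while the methods of the study give a younger age at the end of the diets.

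Glucocorticoid hormone, which in mice is mainly corticosterone, enters cells and binds the glucocorticoid receptor, encoded by Nr3c1. The bound receptor moves to the nucleus and binds short DNA sequences, called glucocorticoid response elements, near the genes it induces. Corticosterone is released in a daily rhythm and rises further under stress. Each of the genes has other inputs as well. The metallothionein genes Mt1 and Mt2 also respond to zinc and other metals through the factor Mtf1, and Sgk1 also responds to the mineralocorticoid receptor.

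Libraries were made from the 3′ ends of polyadenylated transcripts, so that long transcripts do not gain more counts than short ones. Total counts per mouse ranged from 12559607 to 23331907. Cardiomyocyte markers were abundant in every library, with a summed level over 8 genes of 35075 to 56278 CPM, that is counts scaled to a common library size, as the tissue label states. Adipocyte markers summed to 474 CPM in LP mouse 13, 260 CPM in LP mouse 20, and 135 CPM in HF mouse 3, and to at most 91.1 CPM in each of the other mice. All 6 adipocyte markers are included in these sums. The 5 atrial markers reached 15280 CPM in LP mouse 13 and 12046 CPM in HF mouse 1. LP mouse 13 also had the lowest median correlation with its group, 0.908, against 0.944 to 0.979 for the other mice. Many results below are also given without LP mice 13 and 20. In whole tissue, a lower count can come from fewer cells of a type or from less RNA per cell, which cannot be told apart.

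In GENCODE release M21 on GRCm38, Fkbp5 lies on chromosome 17 from 28399094 to 28517527, and Tsc22d3 on the X chromosome from 140539528 to 140600659. Zbtb16 lies on chromosome 9 from 48654297 to 48836222, and Sgk1 on chromosome 10 from 21882184 to 21999903. Klf9 lies on chromosome 19 from 23141226 to 23168134, and Klf15 on chromosome 6 from 90462576 to 90475238. Mt2 lies on chromosome 8 from 94172664 to 94173568, and Mt1 follows it on the same strand from 94179082 to 94180327, with 5513 bp between them. The ends of the 8 transcripts, from which the reads come, were distinct. None of the 326 windows of 75 bases in the last 400 bases of any of the genes was found in transcripts of another gene, and the longest run shared by Mt1 and Mt2 was 20 bases.

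RefSeq start windows on GRCm38.p6, each from 250 bases before to 50 bases after an annotated start, were found for 7 of the 8 genes, which have 14 such windows. A full glucocorticoid response element, spelled AGAACA, then 3 bases of any kind, then TGTTCT, was found in 1 of the 6 windows of Sgk1, at positions −189 to −175 counted from the first transcribed base as 0. In all, 3 of 32851 mouse windows (0.00913%) hold it. The core of the metal response element, TGCACNC or TGCGCNC, was found 3 times in the window of Mt1 and 4 times in that of Mt2. At least 3 copies were found in 1.97% of all windows and at least 4 in 0.517%, while 25.7% hold at least 1. Both strands were searched. These matches are descriptions of the letters and say nothing of binding. The sequences are shown because they are the start windows with the most matches to these elements, read 5′ to 3′ on the plus strand, with the matches in capitals. That of Sgk1 ends at the last base before its RefSeq start (chr10:21993640-21993889). Those of Mt1 (chr8:94178839-94179118) and Mt2 (chr8:94172368-94172647) reach 30 bases past their RefSeq starts. RefSeq starts are not always the GENCODE gene starts given above. The printed Mt2 stretch ends before the GENCODE start at 94172664, and the Fkbp5 window (chr17:28486100-28486399) lies inside the GENCODE span of Fkbp5.
Sgk1: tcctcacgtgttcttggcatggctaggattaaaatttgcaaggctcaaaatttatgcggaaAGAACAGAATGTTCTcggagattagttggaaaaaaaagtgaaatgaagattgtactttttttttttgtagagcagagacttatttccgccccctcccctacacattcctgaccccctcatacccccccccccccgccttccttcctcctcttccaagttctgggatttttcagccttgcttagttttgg
Mt1: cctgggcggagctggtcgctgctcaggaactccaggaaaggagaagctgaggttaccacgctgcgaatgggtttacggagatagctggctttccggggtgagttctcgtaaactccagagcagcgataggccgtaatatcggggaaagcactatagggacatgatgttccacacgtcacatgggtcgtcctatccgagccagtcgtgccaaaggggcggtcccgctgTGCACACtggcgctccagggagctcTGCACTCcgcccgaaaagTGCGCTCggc
Mt2: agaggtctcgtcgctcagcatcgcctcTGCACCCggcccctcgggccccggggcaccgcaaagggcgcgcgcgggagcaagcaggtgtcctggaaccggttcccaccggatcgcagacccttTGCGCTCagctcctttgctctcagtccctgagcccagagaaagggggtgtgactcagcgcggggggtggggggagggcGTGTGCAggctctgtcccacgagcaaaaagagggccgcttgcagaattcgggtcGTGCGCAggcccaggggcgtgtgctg

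The glucocorticoid half-site AGAACA, which lies within the full element, was found in 3 windows of Sgk1 and 1 of Tsc22d3, and 19% of all windows hold it. The E-box CACGTG, which the clock proteins Clock and Bmal1 are known to bind, was found 3 times in the window of Klf15 and 1 time each in a window of Fkbp5 and of Sgk1, against 7.15% of all windows with at least 1. Of the E-boxes of Klf15, 1 overlaps its metal response element core. The D-box, spelled TTATGTAA or TTACGTAA, which the clock output factors Dbp, Tef, and Hlf are known to bind, was found in none of the 14 windows and in 1.06% of all windows.

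**Figure D1:**
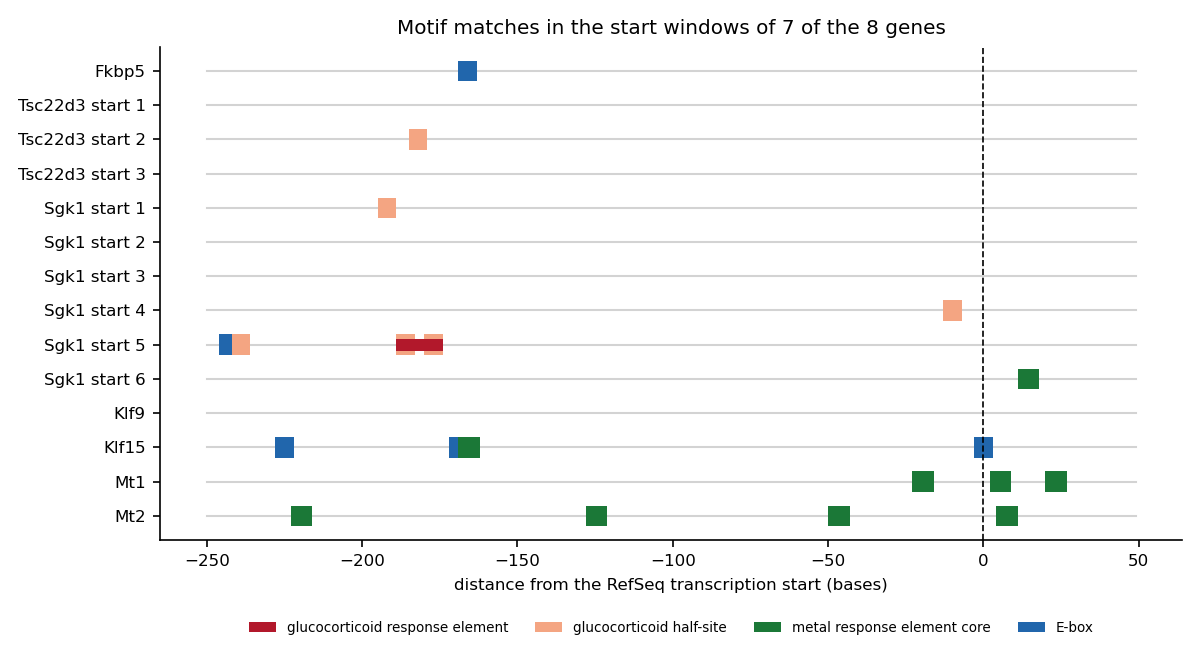
Positions of motif matches (colored blocks) in the 14 RefSeq start windows of 7 genes, plotted as distance from the annotated start in bases. The full glucocorticoid response element is in 1 Sgk1 window, and the metal response element cores cluster in Mt1 and Mt2.

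The question asked of the counts was whether the diets changed these glucocorticoid-responsive genes in the heart, and none of the 8 passed the test in any comparison. A call needed an adjusted p below 0.01 in the quasi-likelihood test of edgeR, adjusted by the Benjamini-Hochberg method over 13991 genes. It also needed a base mean, the normalized count averaged over the 20 mice, above 50. All 8 genes had such a base mean. For HF compared to NP, 0 of 8 were called, while 0.264% of all genes tested were. In HF + LP compared to LP, 0 of 8 were called and 0.1% of all genes were. In LP compared to NP, in HF + LP compared to HF, and in the interaction of fat and protein, no gene was called at all, a background of 0%. At an unadjusted p under 0.05, edgeR also found 0 of 8 in each comparison, against 13.1% of all genes in HF compared to NP, 7.25% for LP compared to NP, 4.84% for HF + LP compared to HF, 15.9% in HF + LP compared to LP, and 7.17% in the interaction. DESeq2 called 0 of 8 in each comparison as well. Of all genes, DESeq2 called 163 in HF compared to NP, 84 in HF + LP compared to LP, and 16 in HF + LP compared to HF. It called 4 in LP compared to NP and 1 in the interaction. The 4 diet comparisons share mice, and each is given by its own values.

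**Figure D2:**
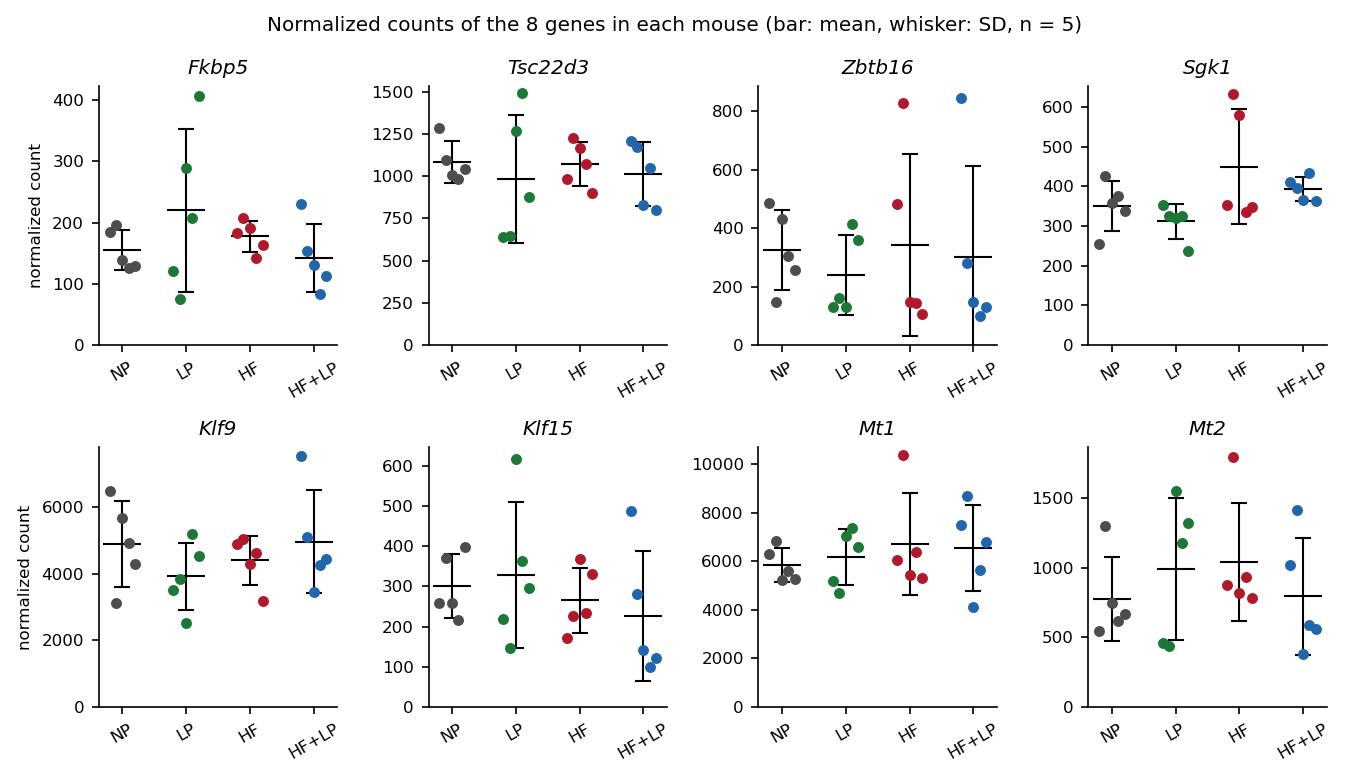
Normalized counts (vertical axes, starting at 0) of the 8 genes in each mouse by diet group, with the mean (bar) and SD (whisker) of 5 mice. The groups overlap for every gene in every comparison, except Sgk1 between LP and HF + LP.

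Fkbp5 encodes a co-chaperone of Hsp90 that lowers the hormone affinity of the glucocorticoid receptor, and it is a classic readout of receptor activity. Its normalized count was 185, 196, 139, 126, and 129 in NP mice 3, 4, 5, 6, and 8, and 121, 74.9, 289, 208, and 406 in LP mice 2, 5, 13, 15, and 20. It was 183, 207, 191, 142, and 163 in HF mice 1 to 5, and 230.2, 154, 131, 84.0, and 112 in HF + LP mice 1 to 5. The LP group held both the highest and the lowest mouse of the 20, and its values overlapped with those of every other group. The highest LP mouse had 5.42 times the count of the lowest, compared to 2.74 times for HF + LP, 1.55 times for NP, and 1.46 times for HF. With LP mice 13 and 20 left out, the ratio for LP was 2.78 and its mean 135 ± 67.6 (SD, n = 3). Means were 219.9 ± 133 for LP, 177 ± 25.3 for HF, 155 ± 32.8 for NP, and 142 ± 55.4 for HF + LP (SD, n = 5). The log2 fold change was 0.52 in LP compared to NP (standard error 0.33, 95% interval −0.17 to 1.20, edgeR adjusted p = 0.807) and −0.64 in HF + LP compared to LP (standard error 0.33, 95% interval −1.32 to 0.05, adjusted p = 0.349). Both rest on LP mice 13 and 20, which also had the highest adipocyte marker levels, and the part of these markers in the result was not tested. Without those mice the log2 fold changes were −0.21 and 0.09, and without LP mouse 20 alone they were 0.17 and −0.29.

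Tsc22d3 encodes a leucine zipper protein that mediates anti-inflammatory effects of glucocorticoids. Its normalized count was 1288, 1097, 1007, 981, and 1045 in NP mice 3, 4, 5, 6, and 8, and 641, 648, 1269, 1489.9, and 877 in LP mice 2, 5, 13, 15, and 20. It was 985, 1224, 1168, 1070.0, and 904 in HF mice 1 to 5, and 1206, 1171, 832, 1051, and 800.2 in HF + LP mice 1 to 5. LP mice 2 and 5 were lowest and LP mouse 15 highest of all 20, so that the LP values enclosed those of the other groups. HF and NP differed by −0.02 on the log2 scale, with a 95% interval of −0.43 to 0.39.

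Zbtb16 encodes a zinc finger transcriptional repressor. Its normalized count was 487, 149, 433, 304, and 257 in NP mice 3, 4, 5, 6, and 8, and 132, 160.0, 131, 413, and 361 in LP mice 2, 5, 13, 15, and 20. It was 483, 828, 148, 144, and 107 in HF mice 1 to 5, and 844, 281, 149, 101, and 129 in HF + LP mice 1 to 5. In both high-fat groups mice 1 and 2 were above mice 3, 4, and 5. The range was 7.71 times in HF and 8.37 times in HF + LP. The 95% interval of the log2 fold change of HF compared to NP was wide, from −1.20 to 1.31 around 0.06. Differences of either sign within it are compatible with these counts. The labels also give each library name a number of 1, 2, or 3, whose meaning is not stated. HF mice 3, 4, and 5 and HF + LP mice 3, 4, and 5 all carry the number 3. Over all groups, the 10 libraries with the number 3 had a Zbtb16 range of 101 to 433 and a median of 148, those with the number 2 had a range of 281 to 828 and a median of 361, and those with the number 1 had a range of 131 to 844 and a median of 149.

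Sgk1 encodes a kinase that regulates ion channels and transporters. Its normalized count was 255, 426, 358, 374, and 337 in NP mice 3, 4, 5, 6, and 8, and 353, 324, 320.2, 324, and 237 in LP mice 2, 5, 13, 15, and 20. It was 352, 633, 579.8, 335, and 348 in HF mice 1 to 5, and 410.4, 396, 365, 433, and 363 in HF + LP mice 1 to 5. Every HF + LP mouse was above every LP mouse, while HF mice 2 and 3 stood above all other mice. Of the 8 genes, 1 had groups that did not overlap between HF + LP and LP, where 1.87% of all genes tested did not (0.915% with HF + LP higher). The log2 fold change of HF + LP compared to LP was 0.34 (standard error 0.18, 95% interval −0.03 to 0.71, edgeR adjusted p = 0.350), and it was 0.36 in HF compared to NP (standard error 0.18, 95% interval −0.01 to 0.73, adjusted p = 0.396). The high-fat group had the higher mean in both comparisons, and neither difference passed the test. The median of HF, 352, was below that of NP, 358, and without HF mouse 2 the log2 fold change of HF compared to NP was 0.21. In the other comparisons the groups overlapped for all 8 genes, while they did not for 5.67% of all genes in HF compared to NP, 0.786% in LP compared to NP, and 1.18% in HF + LP compared to HF.

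Klf9 and Klf15 encode Krüppel-like transcription factors. Klf15 is known for its control of amino acid breakdown in heart and muscle. The normalized count of Klf9 was 6499.7, 3130.4, 5683, 4915, and 4281 in NP mice 3, 4, 5, 6, and 8, and 3504, 3842, 2527, 5184, and 4519.8 in LP mice 2, 5, 13, 15, and 20. It was 4902, 5034, 4283, 4619.8, and 3189.7 in HF mice 1 to 5, and 7543, 5106, 3455, 4274, and 4440.3 in HF + LP mice 1 to 5. LP mouse 13 was lowest and HF + LP mouse 1 highest. The log2 fold change of Klf9 was −0.32 in LP compared to NP (standard error 0.22, edgeR adjusted p = 0.826) and 0.34 in HF + LP compared to LP (standard error 0.22, adjusted p = 0.451). The first was −0.20 without NP mouse 3, and the second was 0.14 without HF + LP mouse 1.

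The normalized count of Klf15 was 259, 370.0, 258, 215, and 399 in NP mice 3, 4, 5, 6, and 8, and 218, 146, 619, 364, and 297 in LP mice 2, 5, 13, 15, and 20. It was 170.4, 225, 368, 235, and 331 in HF mice 1 to 5, and 487, 281, 142, 98.6, and 121 in HF + LP mice 1 to 5. LP mouse 13 was highest of all, and HF + LP mice 3, 4, and 5 were the 3 lowest. The log2 fold change in HF + LP compared to LP was −0.55 (standard error 0.40, 95% interval −1.37 to 0.28, edgeR adjusted p = 0.511). Without LP mice 13 and 20 it was −0.09, without LP mouse 13 alone −0.17, and without HF + LP mouse 1 −1.04. In LP compared to NP it was 0.14, and −0.31 without LP mice 13 and 20.

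Mt1 and Mt2 encode metallothioneins, small proteins that bind zinc and copper. The normalized count of Mt1 was 6318, 6843, 5227, 5598, and 5276 in NP mice 3, 4, 5, 6, and 8, and 5178, 4709, 7026, 7370.0, and 6589.8 in LP mice 2, 5, 13, 15, and 20. It was 6042, 10381, 5428, 6391, and 5329 in HF mice 1 to 5, and 7515, 8704, 4098, 5622, and 6812 in HF + LP mice 1 to 5. HF mouse 2 stood above all others. The log2 fold change of Mt1 was between −0.04 and 0.20 in the 4 diet comparisons.

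The normalized count of Mt2 was 546, 1299.7, 745, 619, and 669.5 in NP mice 3, 4, 5, 6, and 8, and 462, 439, 1552, 1179, and 1323 in LP mice 2, 5, 13, 15, and 20. It was 875, 1795, 816, 935, and 786 in HF mice 1 to 5, and 1023, 1417, 380.4, 587, and 562 in HF + LP mice 1 to 5. The LP mice fell into 2 that were low and 3 that were high, and HF mouse 2 was again highest. The log2 fold change of Mt2 was 0.42 in HF compared to NP (standard error 0.38, 95% interval −0.38 to 1.22, edgeR adjusted p = 0.730). Without HF mouse 2 it was 0.14, and without NP mouse 4 it was 0.69. It was 0.36 in LP compared to NP (standard error 0.38, adjusted p = 0.922), and −0.17 without LP mice 13 and 20. Mt2 counts were 8.25% to 22.1% of Mt1 counts over the 20 mice, with a median of 15.99% for LP, 14.7% for HF, 12.7% for NP, and 10.4% for HF + LP. With LP mice 13 and 20 left out, the median for LP was 9.32%, the lowest of the groups instead of the highest.

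**Figure D3:**
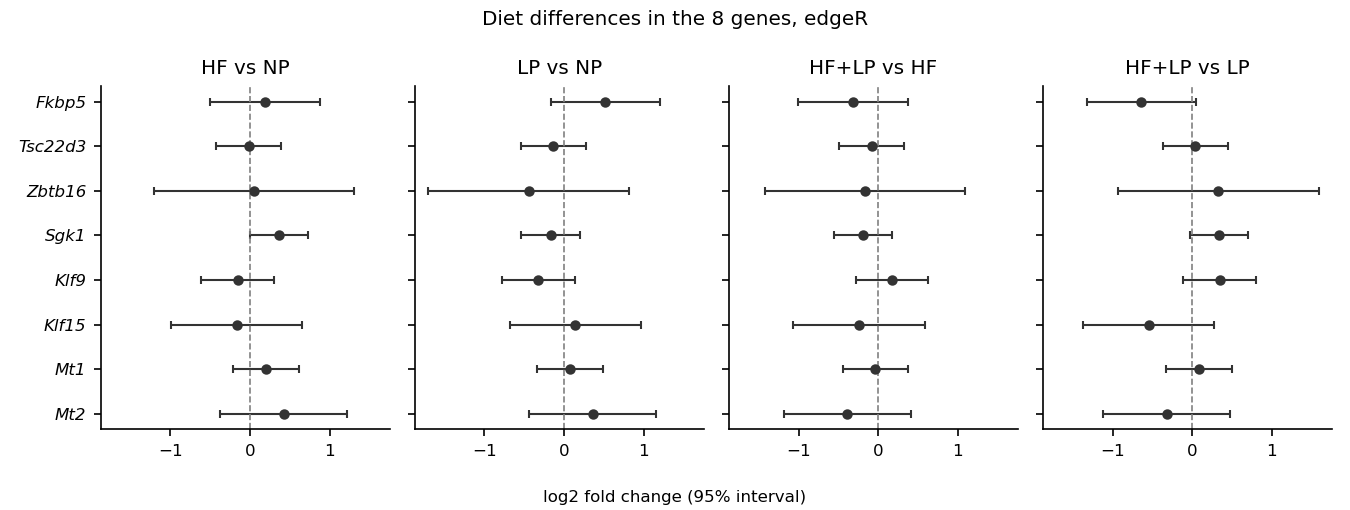
Log2 fold changes (horizontal axes, points) of the 8 genes with 95% intervals (lines) in 4 diet comparisons from edgeR. Every interval includes 0, and those of Zbtb16 are the widest.

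In HF compared to NP, 5 of the 8 genes had a log2 fold change above 0, against 49.9% of all genes tested. It was 4 of 8 in LP compared to NP (54.6% of all genes), 5 of 8 in HF + LP compared to LP (45.8%), and 3 of 8 in the interaction (49%). These last 3 counts were 0 of 8, 7 of 8, and 4 of 8 without LP mice 13 and 20. The HF + LP compared to LP count was 3 of 8 without HF + LP mouse 1 or 2, and that of HF compared to NP was 3 of 8 without HF mouse 2. In the interaction it ran from 1 of 8 without HF + LP mouse 1 to 5 of 8 without HF mouse 2 or HF + LP mouse 3. In HF + LP compared to HF it was 1 of 8, Klf9 at 0.17, against 53.7% of all genes, and the median of the 8 was −0.18 against 0.02 over all genes. The other 7 lay between −0.39 (Mt2) and −0.04 (Mt1), and none passed the test (the smallest unadjusted edgeR p was 0.289, for Sgk1). The count of 1 moved with single mice, to 3 of 8 without HF mouse 2 or without HF + LP mouse 3 or 4, to 2 without HF + LP mouse 5, and to 0 without HF + LP mouse 1, and the median was −0.03 without HF mouse 2. Mt2 was at −0.10 without HF mouse 2 and at −0.71 without HF + LP mouse 2. Neighboring diet groups in the order of their mean normalized counts overlapped for each of the 8 genes. The interaction of fat and protein, that is whether the low-protein difference was unlike in the high-fat and the normal-fat setting, was largest in size for Fkbp5 (log2 −0.83, standard error 0.47, 95% interval −1.80 to 0.14, edgeR adjusted p = 0.744) and for Mt2 (−0.75, standard error 0.54, adjusted p = 0.832). Without LP mice 13 and 20 these were −0.10 and −0.22.

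The receptor side of the pathway was likewise without a called gene. Of the list of receptors and steroid-handling genes, 15 were tested, and in HF compared to NP 1 was higher and 2 were lower at an unadjusted edgeR p under 0.05, as were 5.17% and 7.91% of all genes. Nr3c1, the glucocorticoid receptor, had a normalized count of 904 ± 94.6 for HF + LP, 898 ± 30.8 for HF, 831 ± 118 for NP, and 798 ± 179 for LP (SD, n = 5), and its log2 fold changes lay between −0.06 and 0.18. Hsd11b1, whose enzyme regenerates active hormone from its inert form within cells, was at 278 ± 139 for LP, 234 ± 48.0 for HF, 231 ± 34.6 for HF + LP, and 219 ± 21.8 for NP. Nr3c2, the mineralocorticoid receptor, was low, with a base mean of 60.8. The smallest unadjusted p in the list belonged to Abcb1a, an efflux transporter that carries steroids, to the coactivator Ncoa2, and to the chaperone Hsp90aa1. Their log2 fold changes in HF compared to NP were −0.34, −0.27, and 0.68, with edgeR adjusted p of 0.188, 0.272, and 0.279.

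Other genes known to be induced by glucocorticoids did not pass the test either. Of 28 tested, 18 were higher and 10 lower in HF compared to NP, with 5 higher and 2 lower at an unadjusted edgeR p under 0.05, where 5.17% and 7.91% of all genes were. For HF + LP against HF, 8 were higher and 20 lower, and their median log2 fold change was −0.18 against 0.02 over all genes. Cdkn1a, a cell cycle inhibitor that many stresses induce, was at 271 ± 66.3 in NP and 693 ± 174 in HF, without overlap between the groups (log2 fold change 1.35, standard error 0.29, edgeR adjusted p = 0.0222). The transcription factor Cebpd had a log2 fold change of 0.67 in HF compared to NP and −0.51 in HF + LP compared to HF (edgeR adjusted p = 0.188 and 0.996). Foxo1, a factor of the fasting response, was at 525.5 ± 29.8 in NP and 625.2 ± 27.1 in LP (log2 fold change 0.25, edgeR adjusted p = 0.507).

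The genes next to the 8 in function gave no call. Of 6 other metal-responsive genes, 4 were higher and 2 lower in HF compared to NP, and 0 had an unadjusted edgeR p under 0.05, where 13.1% of all genes had. Mt3, Hmox1, and Slc39a10 had the smallest p among them, and their smallest adjusted p in any of the 5 comparisons was 0.553. Of 9 genes of amino acid catabolism and glucose uptake known as Klf15 targets, 9 were lower in HF compared to NP, 4 of them at an unadjusted edgeR p under 0.05 (7.91% of all genes were lower at this p), with a median log2 fold change of −0.30 against 0.00 over all genes. In LP compared to NP, 8 were lower and 1 higher (median −0.21 against 0.02 over all genes). For HF + LP against LP, 6 were lower and 3 higher (median −0.12 against −0.03). Prodh, which breaks down proline, was below every NP mouse in every HF mouse (94.0 ± 15.0 in HF and 148 ± 15.3 in NP, log2 fold change −0.65, standard error 0.20, edgeR adjusted p = 0.123). The glucose transporter gene Slc2a4 and the aminotransferase gene Got1 had log2 fold changes of −0.37 and −0.35, with adjusted p of 0.124 and 0.153 from edgeR. Of 9 immediate early genes, which are induced within minutes by many stimuli, 8 were higher for HF compared to NP and 8 lower for HF + LP compared to HF, and of these 3 and 2 had an unadjusted edgeR p below 0.05 (5.17% and 2.43% of all genes in that direction). Egr1, Atf3, and Btg2 had log2 fold changes of 0.64, 1.107, and 0.41 in HF compared to NP (edgeR adjusted p = 0.0994, 0.0621, and 0.378).

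No cell type marker of the 3 lists given next was called in these comparisons. In HF compared to NP, 8 of 8 cardiomyocyte markers were lower, 3 of them at an unadjusted edgeR p under 0.05 (7.91% of all genes), and their summed level was 38642 to 48893 CPM in HF and 47666 to 56278 CPM in NP. In the same comparison 6 of 6 macrophage markers were higher, 4 at an unadjusted edgeR p under 0.05, and 6 of 6 fibroblast markers were higher, 1 at such a p (5.17% of all genes). For HF + LP against HF, 6 of 6 macrophage and 6 of 6 fibroblast markers were lower, 1 and 2 of them at such a p (2.43% of all genes). Macrophage markers summed to 365 to 487 CPM in HF, 270 to 368 CPM in NP, and 262 to 386 CPM in HF + LP. In LP compared to NP, 8 of 8 cardiomyocyte markers were lower too, where 54.6% of all genes were higher. Their median log2 fold change was −0.21 there and −0.19 in HF compared to NP. Their summed level in LP was lowest in mice 13 and 20, at 35075 and 35716 CPM. For HF + LP against LP, 6 of these markers were higher and 2 lower. The part of these cells in the differences of the lists was not tested.

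Mice of the same diet differed widely in these genes. The SD within diets, on the log2 CPM scale, was 1.03 for Zbtb16, 0.68 for Klf15, 0.67 for Mt2, and 0.58 for Fkbp5. It was 0.38 for Klf9, 0.33 for Mt1, 0.33 for Tsc22d3, and 0.29 for Sgk1. The median over 10158 genes with a base mean over 50 was 0.25, so that all 8 were above it. Zbtb16 was at percentile 98.9 of these genes, Klf15 at 95.8, Mt2 at 95.6, Fkbp5 at 93.1, and the other 4 between 61.3 and 78.9.

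The mice that were high in one gene tended to be high in others. After subtraction of diet means, 26 of 28 pairs of genes had a positive Pearson correlation over 20 mice, with a median r of 0.41 and a range of −0.13 to 0.85. Of 10150 other genes, 45.9% to 51.3% had a positive r with any one of the 8, and the r between members lay at percentiles 27.6 to 99.97 of those genes, with a median of 87.6. The members share libraries, so these correlations also carry whatever else differs between libraries. HF + LP mice 1 and 2 and LP mouse 15 were above their diet mean for all 8 genes, and HF + LP mouse 3 was below it for all 8. Over the 28 pairs, 5 passed an adjusted p under 0.05 (two-sided test with 100000 permutations of mice within diets, Benjamini-Hochberg adjustment). By Spearman's rho the number was 8. The number in the library name was also shared across diets, and libraries with the number 3 were below their diet mean on average for all 8 genes, from −0.02 for Sgk1 to −0.42 for Zbtb16 in log2 CPM. With both diet and this number removed, the median r was 0.30, 26 of 28 pairs were still positive, and 3 passed an adjusted p under 0.05 (permutation within diets). Within the 10 libraries of number 3 the median r was 0.56, a value from few mice per diet and without a test. The numbers 1 and 2 have 5 libraries each, too few for a value.

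The neighbors Mt1 and Mt2 were correlated at r = 0.85 (rho = 0.79, permutation p = 7e-05 and 0.00067, adjusted p = 0.00098 and 0.00938). Without the 2 mice farthest from the median of Mt1, r was 0.83. Zbtb16 and Klf9 were correlated at r = 0.81 (rho = 0.82, permutation p = 1e-05 for both, the smallest the permutations can give, adjusted p = 0.00028), and at 0.79 without the 2 mice farthest in Zbtb16. Fkbp5 and Mt2 had r = 0.72 (rho = 0.66, permutation p = 0.00589 and 0.0115, adjusted p = 0.0373 and 0.0457), and Fkbp5 and Klf15 had r = 0.69 (rho = 0.67, permutation p = 0.00666 and 0.00662, adjusted p = 0.0373 and 0.0371). Without the 2 mice farthest in Fkbp5 these were 0.67 and 0.76. Each of these calls was lost on leaving out any 1 of 9 mice, with adjusted permutation p of 0.0530 to 0.0904 for Fkbp5 with Mt2 and 0.0558 to 0.114 for Fkbp5 with Klf15. Fkbp5 with Mt2 was also lost without LP mice 13 and 20 (r = 0.63, adjusted permutation p = 0.0778). Tsc22d3 and Mt1 had r = 0.64 (rho = 0.71, permutation p = 0.00245 and 0.00343, adjusted p = 0.0229 and 0.0320), and 0.64 without the 2 mice farthest in Tsc22d3. With the library name number removed as well, r was 0.81 for Mt1 with Mt2, 0.83 for Zbtb16 with Klf9, and 0.71 for Fkbp5 with Klf15, and these 3 passed (permutation adjusted p = 0.0084, 0.0084, and 0.0354). Fkbp5 with Mt2 and Tsc22d3 with Mt1 did not, at r = 0.62 and 0.66 (permutation adjusted p = 0.198 and 0.0608). Sgk1 had the weakest relations, with r between −0.13 and 0.24 to the other 7 genes. Without LP mice 13 and 20 the median r was 0.52, and without the whole LP group it was 0.47.

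**Figure D4:**
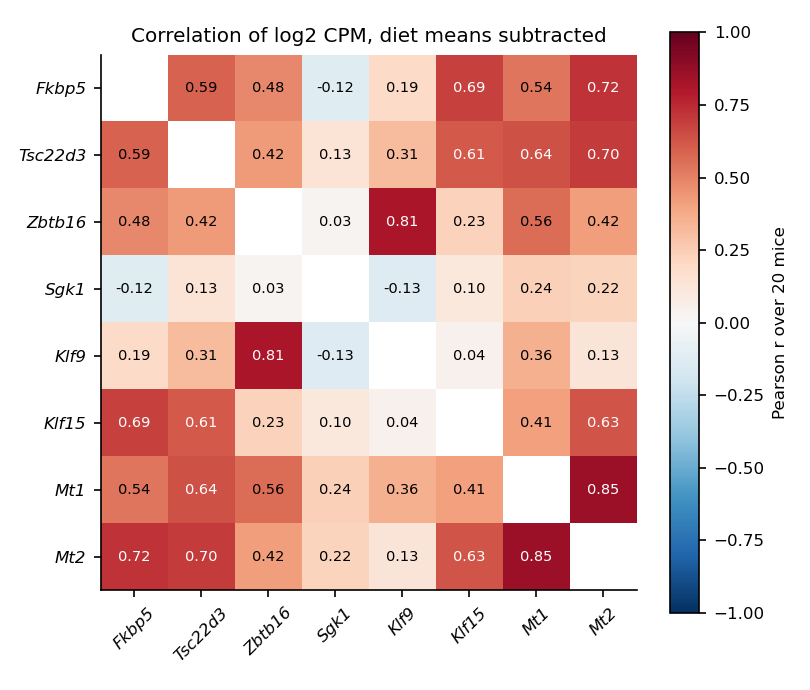
Pearson r (color and number in each cell) of log2 CPM between the 8 genes over 20 mice, with diet means subtracted. The row of Sgk1 is pale, with r from −0.13 to 0.24, and the darkest cells are Mt1 with Mt2 and Zbtb16 with Klf9.

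Among 10150 other genes with a base mean over 50, 4 of the 5 most like Mt2 between mice of a diet were clock genes. These were the clock output factor Tef (r = 0.89), the period gene Per1 (0.87), the nuclear receptor of the clock Nr1d2 (0.87), and Per3 (0.86), all as Pearson r of diet-centered log2 CPM over 20 mice. Per1 is also known as a glucocorticoid-induced gene and stands in both lists. The genes most like Fkbp5 were 1300002E11Rik (r = 0.87), the Wnt pathway gene Frat2 (0.86), the flavin monooxygenase Fmo2 (0.83), C2cd3 (0.83), and the growth factor Bmp4 (0.82). Without LP mice 13 and 20, Per1, Tef, Nr1d2, and Per3 took places 1, 3, 8, and 27 for Mt2, with r of 0.88 to 0.81. For Fkbp5, Bmp4, 1300002E11Rik, Fmo2, Frat2, and C2cd3 then took places 2, 5, 17, 29, and 120, with r of 0.86 to 0.66.

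Per1 varied between mice in the same direction as several of the 8 genes. Its normalized count was 462, 783, 557, 554, and 504 in NP mice 3, 4, 5, 6, and 8, and 122, 126, 898, 669, and 287 in LP mice 2, 5, 13, 15, and 20. It was 333, 364, 238, 219.99, and 201 in HF mice 1 to 5, and 342, 405, 113, 165, and 104 in HF + LP mice 1 to 5. LP mice 2 and 5, in which Fkbp5, Tsc22d3, and Mt2 were lowest of their group, were also lowest in Per1, and HF + LP mice 1 and 2 were the 2 highest of theirs. Arntl, which encodes Bmal1 and peaks at the opposite time of day to the period genes, was at 7.74 to 21.5 for NP, 3.95 to 114 for HF, 14.6 to 116 for HF + LP, and 1.26 to 108 for LP. The NP mice thus spanned a narrow range of Arntl, and each of the other groups held both low and high mice.

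The correlations of the 8 genes with Per1 and Arntl, 16 in all, were chosen after these values had been seen and are a description. Over the 20 mice, with diet means subtracted, Per1 had r = 0.87 with both Tsc22d3 (rho = 0.76) and Mt2 (rho = 0.89). Klf15, Mt1, and Fkbp5 followed at 0.70, 0.69, and 0.66 (rho = 0.57, 0.74, and 0.67), while Zbtb16, Sgk1, and Klf9 were at 0.43, 0.17, and 0.15. Arntl had r = −0.79 with Mt1 (rho = −0.83), −0.72 with Zbtb16 (rho = −0.66), and −0.70 with Tsc22d3 and Mt2 (rho = −0.60 and −0.65), and was weakest with Sgk1, at −0.10. Arntl is a low gene, with a base mean of 41.6, under the minimum of 50 used for calls, and in its lowest mice the prior count of 2 bears on the log2 CPM. With the 2 mice farthest in the clock gene left out, the 4 highest r of Per1 were between 0.63 and 0.87 and the 4 named for Arntl between −0.73 and −0.57. Without LP mice 13 and 20 they were between 0.60 and 0.88 for Per1 and between −0.80 and −0.68 for Arntl. With the library name number removed as well, r with Per1 was 0.89 for Tsc22d3 and 0.85 for Mt2, and r with Arntl was −0.74 for Mt1, −0.69 for Tsc22d3, −0.65 for Zbtb16, and −0.61 for Mt2.

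**Figure D5:**
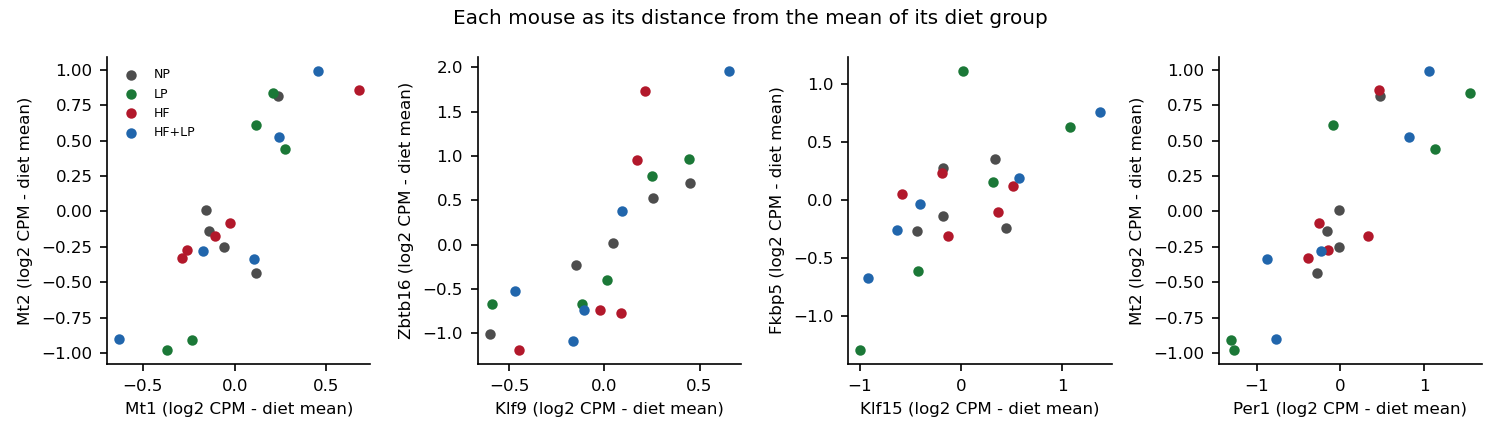
Each point is a mouse, plotted as its log2 CPM minus the mean of its diet group, for Mt2 against Mt1 (r = 0.85), Zbtb16 against Klf9 (r = 0.81), Fkbp5 against Klf15 (r = 0.69), and Mt2 against Per1 (r = 0.87). The points rise together over the 20 mice in each panel, while the 5 HF mice alone show no rise of Fkbp5 with Klf15.

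The clock genes, through which heart cells keep daily time, had 0 called genes in any comparison. Of 15 tested, 3 were higher and 12 lower in HF compared to NP, and 2 higher and 4 lower at an unadjusted edgeR p under 0.05 (5.17% and 7.91% of all genes). Cardiomyocyte markers were lower in the same comparison, 8 of 8. Of 5 mural cell markers, 4 were lower and 1 higher, with a median log2 fold change of −0.76. The part of these markers in the result was not tested. The median log2 fold change of the clock genes in HF compared to NP was −0.52 against 0.00 over all genes. In LP compared to NP, 4 were higher and 11 lower (median −0.27 against 0.02 over all genes). For HF + LP against LP, 2 were higher and 13 lower (median −0.32 against −0.03). The summed level was 682 to 855 CPM in NP and 354 to 590 CPM in HF, without overlap, while LP ranged from 289 to 1002 CPM and HF + LP from 285 to 679 CPM. Per3 was at 857 ± 54.5 in NP and 299.98 ± 71.6 in HF (log2 fold change −1.52, standard error 0.44, edgeR adjusted p = 0.0901), and Per1 had a log2 fold change of −1.08 in that comparison (standard error 0.47, adjusted p = 0.318). In the same comparison Mt2 and Tsc22d3, which were correlated with Per1 within diets, had log2 fold changes of 0.42 and −0.02, neither of which passed the test. The time of collection of each mouse is not given beyond the middle of the light phase, and its part in the result was not tested.

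The 8 genes were also set against the mean level of 15 gene lists between mice of a diet, 120 relations with Benjamini-Hochberg adjustment over them. Of these, 1 passed an adjusted p under 0.05, Klf15 with the other glucocorticoid-induced genes (r = 0.89, rho = 0.85, adjusted p = 0.0012 for both with permutation of mice within diets). With the library name number removed as well, 3 of the 120 passed. They were this relation (r = 0.88, permutation adjusted p = 0.0084), Fkbp5 with the endothelial markers (r = −0.86), and Klf15 with the clock list (r = 0.78), the last 2 with a permutation adjusted p that rounds to 0.05. With diet alone removed, the r of Klf15 with the other induced genes was 0.88 without the 2 mice farthest in the list and 0.87 without LP mice 13 and 20. The clock list had a median r of 0.66 with the 8 genes, up to 0.80 for Mt2 and Klf15 (adjusted p = 0.0912 for both by permutation). Of the cell type lists, the strongest relation was that of Fkbp5 with the endothelial markers, at r = −0.84 (rho = −0.71, permutation p = 0.0009 and 0.0041, adjusted p = 0.0540 and 0.120). These markers were lowest in LP mice 13 and 20, at 426 and 441 CPM, and r was −0.67 without them. Endothelial markers summed to 426 to 696 CPM in LP, the group in which Fkbp5 ranged most, and their part in the spread of Fkbp5 was not tested. Adipocyte markers had r between −0.36 and 0.44 with the 8 genes, the highest being that of Fkbp5, which was −0.0084 without LP mice 13 and 20, and macrophage markers between −0.31 and 0.66, with no adjusted p under 0.05.

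Body weight, which the labels give for each mouse, was 58.9 ± 1.76 g for HF, 48.6 ± 5.93 g for HF + LP, 43.0 ± 7.82 g for NP, and 32.6 ± 2.69 g for LP (SD, n = 5). Between mice of a diet it had r of −0.22 to 0.25 with the 8 genes, and the smallest adjusted p over these 8 relations was 0.930 by permutation. By rho it was 0.709, for Zbtb16 (rho = −0.39, permutation p = 0.0887). No relation of these genes with body weight was detectable over 20 mice.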

How the data were processed

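The authors prepared 3′ mRNA libraries with the QuantSeq kit, read them as 75 bp fragments on the NextSeq 500, and used BlueBee for alignment. They deposited untransformed counts for each Ensembl gene in each mouse. Per the labels, the build was GRCm38 and DESeq2 1.22.2 was used. Counting program and annotation are not given in the sources used here. No listed gene had fewer than 60 counts in total, and 15917 had a symbol.

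Counts were analysed with edgeR 4.0.16 in R 4.3.3. After filterByExpr and TMM scaling, one quasi-likelihood model was fitted to the 20 mice together. The thresholds of the study were used for calls, 0.01 for the adjusted p and 50 for the base mean. Log2 CPM used a prior count of 2. Standard errors and 95% intervals come from the F statistic. P-values measure the spread between mice. The 8 genes and the gene lists were chosen with earlier results of these data known. Genes named from a list had the 3 smallest unadjusted p over 5 comparisons, besides Nr3c1, Nr3c2, Hsd11b1, and Per1, and the 5 genes most correlated with Fkbp5 and with Mt2, of which 1 is not reported here. The correlations with Per1 and Arntl were chosen after values were seen. The test was checked on simulated counts with a log2 change of 1.5 in HF for 200 of 13991 genes. Of these, edgeR recovered 91.5%, with 0 false calls. Smaller changes, as those of the 8 genes were, were not simulated.

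Alternatives were DESeq2 1.42.0, RLE size factors, a filter of 10 counts per library or none, a threshold of 0.05, calls without a base mean minimum, a model with the library name number or with the animal number, a fit to 2 groups at a time, removal of mitochondrially encoded genes, removal of each mouse, Spearman's rho, and a prior count of 0.5. Removal of LP mice 13 and 20, with and without HF mouse 3, and, for the correlations, removal of each mouse other than LP 13 and of the library name number were added after the data had been seen. Whether animal numbers pair mice across groups is not stated. Sequences came from RefSeq (GRCm38.p6) and gene positions from GENCODE M21 (GRCm38).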

Additional observations from a re-analysis of the deposited data

Results flagged for a closer look

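In 32 groups of 5 mice, the 8 genes in 4 diets, 5 values in 4 mice stood far from the rest of their group, in that the gap to the nearest mouse was over 0.71 of the range of the group. Chance flags about 1 in 20 groups where values are independent and normally distributed. The values here were normalized counts without logs, and Mt1 and Mt2 were correlated between mice, so that rate may not hold. Zbtb16 was at 844 in HF + LP mouse 1, with the next mouse at 281. Sgk1 was at 237 in LP mouse 20, below the next at 320.2. In HF mouse 2, Mt1 was at 10381 and Mt2 at 1795, with the next HF mice at 6391 and 935. Mt2 was at 1299.7 in NP mouse 4, with the next at 745.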

How the results depend on the processing

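No member was called under any alternative, and the smallest adjusted p of a member was 0.101 (Fkbp5 in HF + LP compared to LP, without LP mouse 5). Of 1192 log2 fold changes of the 8 genes under alternatives, 1117 kept their direction and 75 changed it, 39 of them on leaving out a mouse, and none crossed the threshold. For Tsc22d3 in HF compared to NP, the value was 0.0032 with RLE size factors and with DESeq2, 0.0034 with mitochondrially encoded genes left out, 0.0091 with the library name number as a covariate, and 0.021 with only the 2 groups. With that covariate Zbtb16 in HF compared to NP was −0.081, and Klf15 in LP compared to NP was −0.011.

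Same-numbered mice of different groups had an r above 0.1 between their deviations in 7 of 16 pairs (mean r −0.02, range −0.55 to 0.48). These values cannot decide whether the numbers pair mice, and the labels do not say so. With the animal number as a replicate block, Fkbp5, Zbtb16, Mt1, and Mt2 were −0.19, −1.05, −0.088, and −0.016 in HF compared to NP. Fkbp5, Klf15, Mt1, and Mt2 were −1.04, −0.93, −0.65, and −1.35 in LP compared to NP. Fkbp5, Klf15, and Mt2 were 0.47, 0.12, and 0.86 in HF + LP compared to LP. Fkbp5, Klf15, Mt1, and Mt2 were 0.66, 0.44, 0.62, and 0.88 in the interaction. With the block, 2 genes in all were called in HF compared to NP, against 37.

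Without LP mice 13 and 20, Fkbp5, Klf15, Mt1, and Mt2 in LP compared to NP were −0.21, −0.31, −0.026, and −0.17, Fkbp5 and Mt2 in HF + LP compared to LP were 0.092 and 0.20, and the Klf15 interaction was 0.078. With HF mouse 3 left out too, they were −0.21, −0.31, −0.027, −0.17, 0.093, 0.20, and 0.22.

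Leaving out each mouse in turn gave, in HF compared to NP, −0.58 to 0.29 for Zbtb16, −0.071 to 0.051 for Tsc22d3, and −0.014 to 0.27 for Mt1, and −0.24 to 0.33 for Klf15 in LP compared to NP. In HF + LP compared to HF the ranges were −1.04 to 0.46 for Zbtb16, −0.16 to 0.18 for Mt1, and −0.029 to 0.27 for Klf9. In HF + LP compared to LP they were −0.080 to 0.23 for Tsc22d3, −0.53 to 0.61 for Zbtb16, and −0.038 to 0.21 for Mt1. In the interaction they were −0.062 to 0.25 for Tsc22d3, −0.11 to 0.13 for Sgk1, −0.87 to 0.0015 for Klf15, −0.24 to 0.10 for Mt1, and −0.59 to 0.91 for Zbtb16. The cause of these changes was not tested.

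The number of correlated pairs was 5, 8 by Spearman's rho, 3 with the library name number removed as well, 9 without LP mice 13 and 20 and HF mouse 3, and 3 to 9 with each mouse left out. Over all genes, 37 were called in HF compared to NP and 14 in HF + LP compared to LP. These counts were 163 and 84 with DESeq2, 157 and 45 at a threshold of 0.05, 61 and 0 with only the 2 groups, 20 to 69 and 1 to 15 with each mouse left out, and 76 and 4 without LP mice 13 and 20. With the block the second was 0, and with the library name number 5. In the comparisons with 0 calls by edgeR, DESeq2 called 4 in LP compared to NP, 16 in HF + LP compared to HF, and 1 in the interaction.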
